A study of Mus musculus with 8 samples.

Results

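The genes described here are 56 genes that copy DNA in S phase or supply its building blocks, from the origin recognition complex and the MCM helicase to the polymerases and the enzymes of nucleotide synthesis. They were taken from a fixed list of names, chosen with earlier results of these data known. With 1 probe set per gene, 54 of them were measured among 22180 genes in all. Ccne2 and Rfc4 each share their probe set with another gene and were not analysed here. RNA levels were profiled with Affymetrix arrays in sorted tumour cells of Patched1+/- mice (CD1 background) that carried a Sox2eGFP reporter (B6 parents). Loss of a copy of Patched1, the brake on Hedgehog signalling, makes these mice prone to medulloblastoma, a tumour of the cerebellum. All mice, of both groups alike, were irradiated with 3 Gy at birth, and were over 70 days old when their tumours, by then causing signs, were collected. After depletion of cells with CD45 or Ter119, the surface markers of white and red blood cells, 4 arrays were made of Sox2-eGFP+ cells (Sox2-positive) and 4 of Sox2-eGFP- cells (Sox2-negative). Each array held RNA pooled from 3 tumours, so SDs and p-values measure the spread between pools and not between single tumours.

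Before a cell divides, the origin recognition complex marks the sites where replication starts, and Cdc6 and Cdt1 load the ring-shaped MCM2-7 helicase there, while geminin blocks reloading. Cyclin E and the Cdc7-Dbf4 kinase then fire the origins, and Cdc45 and the GINS complex join MCM2-7 to form the moving helicase that feeds the polymerases. Most of these genes are transcribed in late G1 and S phase under E2F transcription factors, and proliferating granule neuron progenitors, the cells of origin of this tumour, use them under Hedgehog signalling. The comparison asks whether the sorted Sox2-positive cells hold more or less of this machinery than the rest of the tumour cells. In RNA of whole sorted fractions, fewer cells in S phase and less RNA per cell cannot be told apart.

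The fractions went with their labels: Sox2 lay between 5.67 and 6.36 in the Sox2-positive pools and between 4.04 and 4.60 in the others (limma adjusted p = 2.53e-05). The Sox2-negative values lie under 4.95, the median of 1394 odour and pheromone receptor genes that served as a guide to dim probe sets, so the log2 difference of 1.65 is a lower bound. All 10 markers of granule neuron progenitors had a mean over the 8 arrays above 5.80, the upper quartile of those receptor genes, though Mycn lay below it in Sox2-positive cells (5.59). Of the members, 6 had a group mean below that level (Orc1, Gmnn, Gins1, Rfc2, Rfc3 and Chaf1a), and differences of such dim probe sets can be understated. Correlations between arrays over all genes were 0.942 to 0.968 between the fractions and 0.973 to 0.987 within them.

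No member passed the test (0 of 54 at a limma adjusted p under 0.05), where 8.47% of all 22180 genes passed it, 2.52% lower and 5.96% higher in Sox2-positive cells. After a further quantile normalization over the 22180 genes kept, on top of RMA, 5 of 54 passed, all lower (Tyms, Mcm7, Mcm2, Mcm6 and Pola2). In that fit 3.82% of all genes were called lower. At an unadjusted p under 0.05 there were 6 members, or 11.1%, against 20.1% of all genes. All 6 had a lower mean in Sox2-positive cells: Tyms, Mcm7, Pola2, Uhrf1, Gins3 and Mcm2. Of all 22180 genes, 9.69% were lower at that p (2149 of the 4454 that reached it), close to the 11.1% of members. At the median, the absolute difference of a member (0.11) was about the size of its SE. The log2 difference (Sox2-positive minus Sox2-negative) ran from -0.41 for Tyms to 0.24 for Prim2, at a median of -0.09 with a median SE of 0.10. It was below 0 for 40 of 54 members (74.1%), and over all genes the median was -0.03 with 58.7% below 0. The data set a limit on size for single genes: 53 of 54 members had a 95% interval that lay within a 1.5-fold change either way, the exception being Tyms (interval -0.67 to -0.15). For the 6 dim members among the 53 that limit may be too narrow, as their differences can be understated. Only 3 members differed by 1.2-fold or more, all toward lower values in Sox2-positive cells, whereas 7.38% of all genes were lower and 9.50% higher by that much.

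**Figure D1:**
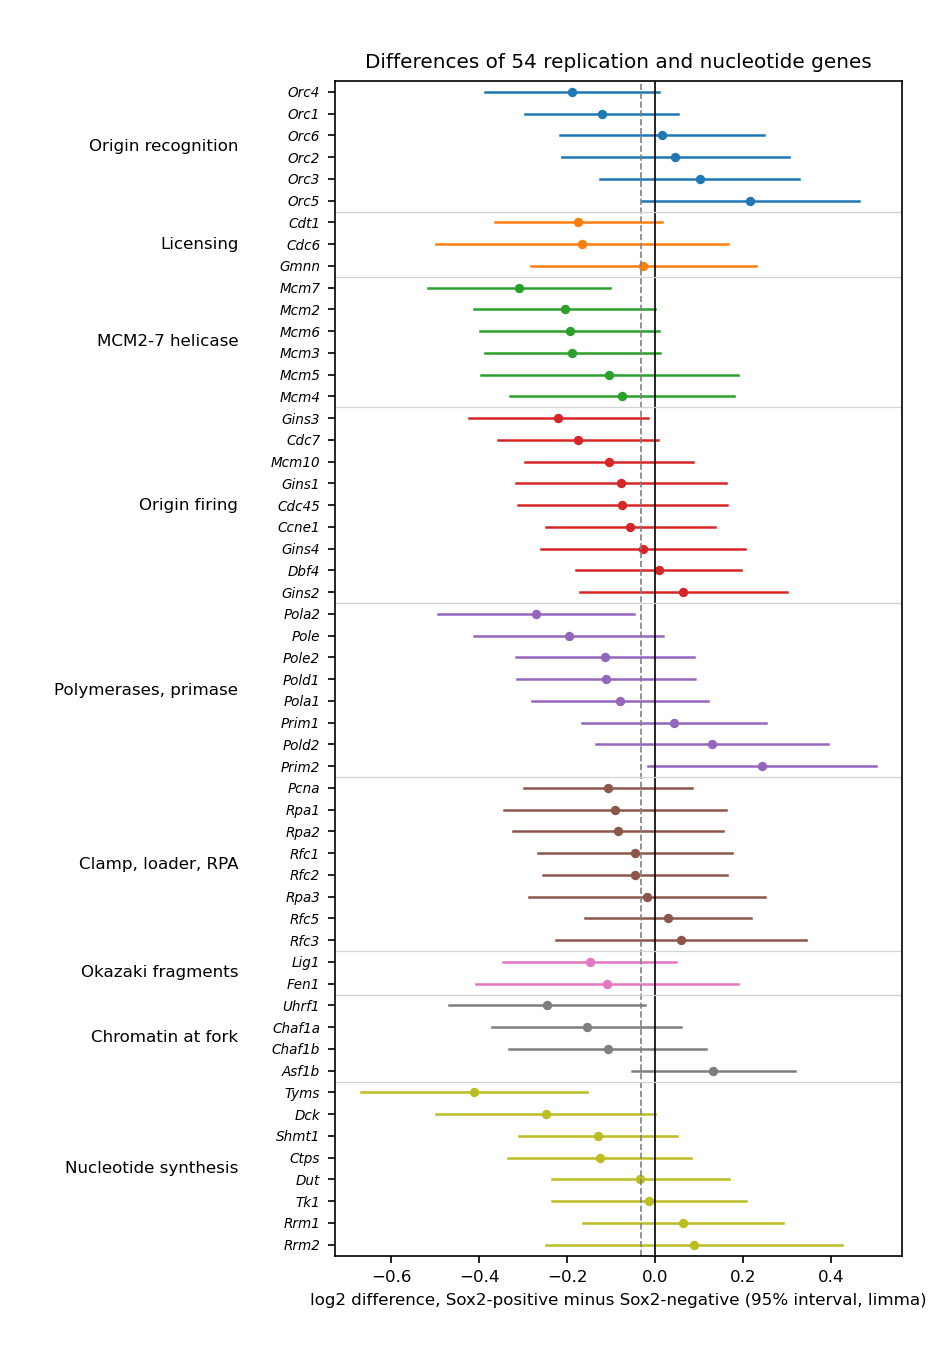
Log2 difference, Sox2-positive minus Sox2-negative, with its 95% interval from limma for each of the 54 measured members, grouped by role (colours); the dashed line is the median of all 22180 genes (-0.03). Most points lie between -0.2 and 0.1, all 6 MCM2-7 genes lie left of 0, and Tyms (-0.41) and Mcm7 (-0.31) lie farthest left.

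The helicase genes shared 1 direction. All 6 of Mcm2 to Mcm7, the subunits of the ring that unwinds DNA, had a negative difference (median -0.19), and none passed the test (0 of 6; limma adjusted p = 0.067 at the lowest). After quantile normalization Mcm7, Mcm2 and Mcm6 passed (limma adjusted p = 0.00963, 0.0423 and 0.0485), where 3.82% of all genes were called lower. Each of these genes failed in the other 14 alternative settings. Mcm7 was at 8.03, 8.15, 8.11 and 8.16 in Sox2-positive pools 1 to 4 and at 8.41, 8.65, 8.30 and 8.32 in Sox2-negative pools 1 to 4. Every Sox2-negative pool lay above every Sox2-positive pool, and the difference was -0.31 (SE 0.10, 95% interval -0.52 to -0.10, adjusted p = 0.067), a level of 80.75% of that in Sox2-negative cells. Mcm2 was at 7.73, 7.91, 7.77 and 7.80 against 7.93, 8.22, 7.98 and 7.90. Its groups touched at 1 point, Sox2-positive pool 2 lying just above Sox2-negative pool 4 (difference -0.21, SE 0.09, adjusted p = 0.245). Mcm6 did not overlap between the groups either (7.94 to 8.01 against 8.05 to 8.39; difference -0.19, adjusted p = 0.275). In all, 5 members lay lower in Sox2-positive cells without overlap (Mcm7, Mcm6, Uhrf1, Cdc7 and Orc1) and 0 lay higher, beside 6.07% and 7.63% of all genes.

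Sox2-negative pool 2 was the highest of the 8 arrays for all 6 MCM2-7 genes, so leaving it out raises each difference by construction. Mcm5 was at 8.76, 8.64, 8.82 and 8.81 in Sox2-positive cells and at 8.77, 9.30, 8.83 and 8.54 in Sox2-negative cells, so that Sox2-negative pool 2 stood far above the Sox2-positive range, pool 3 at its upper edge and the others within or below it. Mcm4 was at 7.61, 7.96, 7.74 and 7.70 against 7.80, 8.13, 7.79 and 7.60. Without Sox2-negative pool 2 the differences of Mcm5 and Mcm4 were 0.044 and 0.025 instead of -0.10 and -0.07, and the median of the 6 genes was -0.13. Mcm3 was at 6.63 to 6.73 against 6.72 to 7.02 (difference -0.19, and -0.13 without that array).

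**Figure D2:**
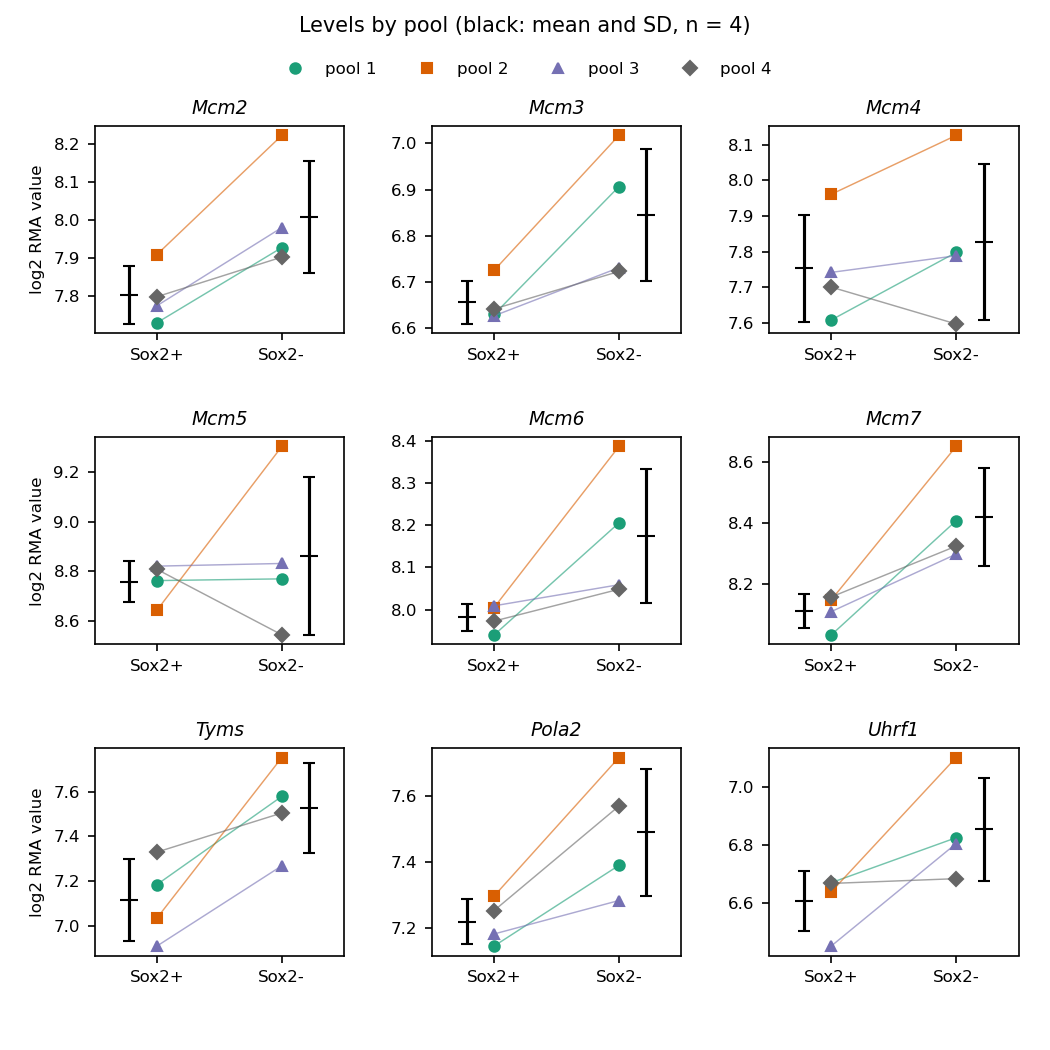
Log2 RMA values of Mcm2 to Mcm7, Tyms, Pola2 and Uhrf1 in each pool of Sox2-positive (Sox2+) and Sox2-negative (Sox2-) cells; symbols and lines mark pools of the same number, black marks the mean with its SD (n = 4), and each vertical axis has its own range and does not start at 0. Sox2-negative pool 2 (orange square) is the highest point in all 9 panels, and all 4 lines run upward in every panel but those of Mcm4 and Mcm5.

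The stretches upstream of the MCM genes are shown because E2F sites are the sequence feature this family is known for. The letters TTTCCCGC, TTTGGCGC, TTTCGCGC and TTTGCCGC, forms of the E2F site, were searched on both strands in the 250 bases before each listed start (RefSeq, GRCm38.p6), with matches allowed to overlap. A match was found in 10 of 58 upstream stretches of 47 members (17.2%), against 1.86% of 32851 such stretches of all genes, and 9 members had no entry. The pentamer CCAAT, the core of the NF-Y site, was in 50% against 33.8%. The members' stretches also held more G and C (median 61.2% against 52.4%), and the motif shares were not corrected for that. Below, capitals mark the E2F letters on either strand, each stretch reading toward the start of its gene. Of the 5 MCM2-7 genes with an entry, Mcm5, Mcm6 and Mcm7 held a match, and those of Mcm5 and the upstream one of Mcm6 each overlap with a second, opposite match.
Mcm6 (chr1:128359706-128359955, minus strand): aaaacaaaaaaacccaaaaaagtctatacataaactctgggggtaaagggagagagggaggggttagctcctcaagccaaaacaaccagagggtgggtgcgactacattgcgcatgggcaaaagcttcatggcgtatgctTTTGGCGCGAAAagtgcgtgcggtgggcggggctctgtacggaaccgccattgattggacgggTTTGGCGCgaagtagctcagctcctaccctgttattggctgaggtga
Mcm5 (chr8:75109259-75109508, plus strand): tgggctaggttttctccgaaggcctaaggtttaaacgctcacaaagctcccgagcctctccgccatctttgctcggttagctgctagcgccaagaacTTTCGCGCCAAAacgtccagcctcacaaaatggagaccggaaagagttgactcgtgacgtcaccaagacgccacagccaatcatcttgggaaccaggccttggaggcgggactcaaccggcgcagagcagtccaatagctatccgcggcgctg
Mcm7 (chr5:138171884-138172133, minus strand): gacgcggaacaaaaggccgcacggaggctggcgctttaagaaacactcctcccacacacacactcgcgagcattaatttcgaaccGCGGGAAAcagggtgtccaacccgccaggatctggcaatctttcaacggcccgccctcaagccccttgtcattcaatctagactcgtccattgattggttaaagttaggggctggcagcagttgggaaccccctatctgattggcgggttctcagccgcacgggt
The Mcm6 matches end 103, 99 and 40 bases before the start, those of Mcm5 end 146 and 142 bases before it, and that of Mcm7 ends 158 bases before it. A second listed start of Mcm7 and those of Mcm2 and Mcm3 held no such letters in this window. The other matches lay upstream of Cdc6, Gins3, Orc1, Orc3, Pola1, Rfc3 and Uhrf1. Of the 10 members with a match, 8 had a negative difference and 2 a positive one (Orc3, 0.10; Rfc3, 0.06), beside 40 and 14 of all 54 measured.

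The genes that mark origins did not share a direction. Of Orc1 to Orc6, the subunits of the origin recognition complex, 2 had a negative and 4 a positive difference, with a median of 0.03. On average these genes lay at -0.20 from their own mean on Sox2-negative pool 4, and between -0.07 and 0.12 on the other arrays. Within pool numbers 1 to 4 the Sox2-positive array was lower for 5, 4, 3 and 2 of the 6. Orc5 was at 6.85, 6.93, 7.08 and 6.82 in Sox2-positive cells and at 6.86, 6.81, 6.77 and 6.38 in Sox2-negative cells. The groups overlapped and Sox2-negative pool 4 was the lowest array (difference 0.22, SE 0.11, limma adjusted p = 0.324). Orc3 was at 7.51, 7.76, 7.76 and 7.51 against 7.46, 7.75, 7.53 and 7.40 (difference 0.10, adjusted p = 0.664), again with the groups overlapping. Orc4 had the most negative difference of the complex (-0.19, SE 0.09, adjusted p = 0.274), and Orc1, the largest subunit, stood at -0.12 (adjusted p = 0.446) without overlap but below the level of the receptor genes' upper quartile in both groups.

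All 3 licensing factors had a negative difference, with the fractions overlapping in each. Cdc6, the ATPase that helps to load MCM2-7, was at 6.48, 6.30, 6.11 and 6.18 in Sox2-positive cells and at 6.23, 6.95, 6.38 and 6.16 in Sox2-negative cells. The difference of -0.17 (SE 0.15, limma adjusted p = 0.613) was 0.0072 without Sox2-negative pool 2. Cdt1, its partner in loading, was at 6.87, 6.82, 6.76 and 6.82 against 6.83, 7.12, 7.001 and 7.02 (difference -0.17, SE 0.09, adjusted p = 0.299). Here 3 of 4 Sox2-negative pools lay above all Sox2-positive pools, and pool 1 lay among them. Gmnn, which encodes geminin, the inhibitor of Cdt1, was at 5.44, 5.39, 5.36 and 5.70 against 5.25, 5.64, 5.39 and 5.72 (difference -0.03, 95% interval -0.28 to 0.23), so its fractions overlapped almost fully.

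Genes of origin firing gave 7 negative and 2 positive differences, between -0.22 and 0.06, and none of 9 passed. Ccne1, which encodes cyclin E1, the partner of Cdk2 at the entry to S phase, was at 6.16, 6.07, 6.04 and 6.04 in Sox2-positive cells and at 6.01, 6.21, 6.26 and 6.06 in Sox2-negative cells. The groups overlapped (difference -0.06, 95% interval -0.25 to 0.14). The kinase gene Cdc7 was at 6.62 to 6.76 against 6.79 to 6.95 without overlap (difference -0.17, SE 0.08, limma adjusted p = 0.271), while its activating subunit Dbf4 had a difference of 0.0078. Of the GINS subunits, Gins3 was at -0.22 (SE 0.09, adjusted p = 0.206), and Gins1, Gins2 and Gins4 lay between -0.08 and 0.06. Cdc45 and Mcm10, which help to turn the loaded ring into an active helicase, had differences of -0.07 and -0.10.

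Among the polymerases and primase the extremes belonged to the same enzyme complex. Pola2, the accessory subunit of DNA polymerase alpha, was at 7.14, 7.30, 7.18 and 7.25 in Sox2-positive cells and at 7.39, 7.72, 7.28 and 7.57 in Sox2-negative cells. Only Sox2-negative pool 3 fell within the Sox2-positive range (difference -0.27, SE 0.10, 95% interval -0.49 to -0.05, limma adjusted p = 0.145). Prim2, the large primase subunit of that complex, was at 7.22, 7.65, 7.78 and 7.38 against 7.20, 7.41, 7.27 and 7.17. It was the most positive of all members (difference 0.24, SE 0.12, 95% interval -0.02 to 0.50, adjusted p = 0.285), with its largest values in Sox2-positive pools 2 and 3. The other 2 genes of the complex, Pola1 (-0.08) and Prim1 (0.04), lay between them. Pold2, a subunit of polymerase delta, was at 7.63, 7.45, 7.69 and 7.61 against 7.40, 7.74, 7.59 and 7.13 (difference 0.13, adjusted p = 0.625), with overlap. The catalytic subunit genes Pole (leading strand) and Pold1 (lagging strand) had differences of -0.20 (adjusted p = 0.302) and -0.11 (adjusted p = 0.577).

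The sliding clamp, its loader and the single-strand binding proteins showed the narrowest range of the larger roles, -0.11 to 0.06 over 8 genes. Pcna, the clamp that holds polymerases on DNA, was at 9.10, 9.15, 9.28 and 9.09 in Sox2-positive cells and at 9.18, 9.40, 9.20 and 9.26 in Sox2-negative cells. Its fractions overlapped (difference -0.11, SE 0.09, 95% interval -0.30 to 0.08, limma adjusted p = 0.563). Rfc1, Rfc2, Rfc3 and Rfc5 of the clamp loader lay between -0.05 and 0.06, and Rpa1, Rpa2 and Rpa3, which coat single strands, between -0.09 and -0.02. Rpa2 varied little in Sox2-positive cells (SD 0.014) and more in Sox2-negative cells (SD 0.23), where pool 2 was at 6.62 and the others at 6.06 to 6.27. Fen1 and Lig1, which trim and join Okazaki fragments, had differences of -0.11 and -0.15 (adjusted p = 0.734 and 0.404).

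Of the 4 genes that restore chromatin behind the fork, 3 had a negative difference. Uhrf1, which brings the maintenance DNA methyltransferase to new strands, was at 6.67, 6.64, 6.45 and 6.67 in Sox2-positive cells and at 6.83, 7.10, 6.81 and 6.68 in Sox2-negative cells. The fractions did not overlap, by a narrow margin at Sox2-negative pool 4 (difference -0.25, SE 0.10, 95% interval -0.47 to -0.02, limma adjusted p = 0.193). The histone chaperone gene Asf1b ran the other way, at 7.22, 7.04, 7.24 and 7.23 against 7.11, 6.98, 7.10 and 7.01 (difference 0.13, SE 0.09, adjusted p = 0.436). It was higher in Sox2-positive cells in 3 of 4 pools than in any Sox2-negative pool, and pool 2 lay among the latter. Chaf1a and Chaf1b, subunits of chromatin assembly factor 1, had differences of -0.16 and -0.11.

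Nucleotide synthesis held the member nearest to the threshold. Tyms, thymidylate synthase, which makes dTMP from dUMP, was at 7.18, 7.03, 6.91 and 7.33 in Sox2-positive cells and at 7.58, 7.75, 7.27 and 7.50 in Sox2-negative cells. Sox2-negative pool 3 lay below Sox2-positive pool 4, and within every pool number the Sox2-negative array was higher. The difference was -0.41 (SE 0.12, limma adjusted p = 0.050025), a level of 75.2% of that in Sox2-negative cells. With the pool number as a block it passed (limma adjusted p = 0.0242), as 1 of 54 members lower, where 10.6% of all genes passed in that fit, 3.46% lower and 7.09% higher. It passed in 5 of 15 alternative settings, with adjusted p between 0.0201 and 0.151 over all of them.

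Of the 8 nucleotide genes 6 had a negative difference (median -0.08), and Tyms alone passed with the block. Dck, the salvage kinase for deoxycytidine, was at 6.90, 6.74, 6.89 and 6.90 in Sox2-positive cells and at 7.03, 7.46, 7.06 and 6.89 in Sox2-negative cells. Its difference of -0.25 (SE 0.12, limma adjusted p = 0.25) was -0.13 without Sox2-negative pool 2. Rrm2, the subunit of ribonucleotide reductase whose level sets the supply of deoxynucleotides in S phase, was at 6.92, 6.82, 7.48 and 7.13 against 7.02, 7.03, 7.30 and 6.63. It had the largest SE of the members (0.16) and a difference of 0.09 (95% interval -0.25 to 0.43), so neither direction could be read. Tk1, the thymidine salvage kinase of S phase, was at 7.16, 7.37, 7.37 and 7.39 against 7.27, 7.34, 7.17 and 7.57 (difference -0.01, 95% interval -0.24 to 0.21). Rrm1 (the large reductase subunit), Dut (which clears dUTP), Shmt1 (which supplies folate units) and Ctps (a CTP synthase) had differences of 0.06, -0.03, -0.13 and -0.13, none past the test.

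The pools of the Sox2-negative fraction differed more among themselves than those of the Sox2-positive fraction. The median SD of the members was 0.16 in Sox2-negative and 0.10 in Sox2-positive cells, and the SD was larger in Sox2-negative cells for 39 of 54 members (72.2%), against 58.3% of all genes. Sox2-negative pool 2 accounted for the largest deviations. It was the highest of the 8 arrays for 28 of 54 members (51.9%) and for all 6 MCM2-7 genes, where it was the highest for 4436 of 22180 genes in all. On average the members lay 0.18 above their own mean on that array and between -0.07 and 0.02 on the other 7.

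**Figure D3:**
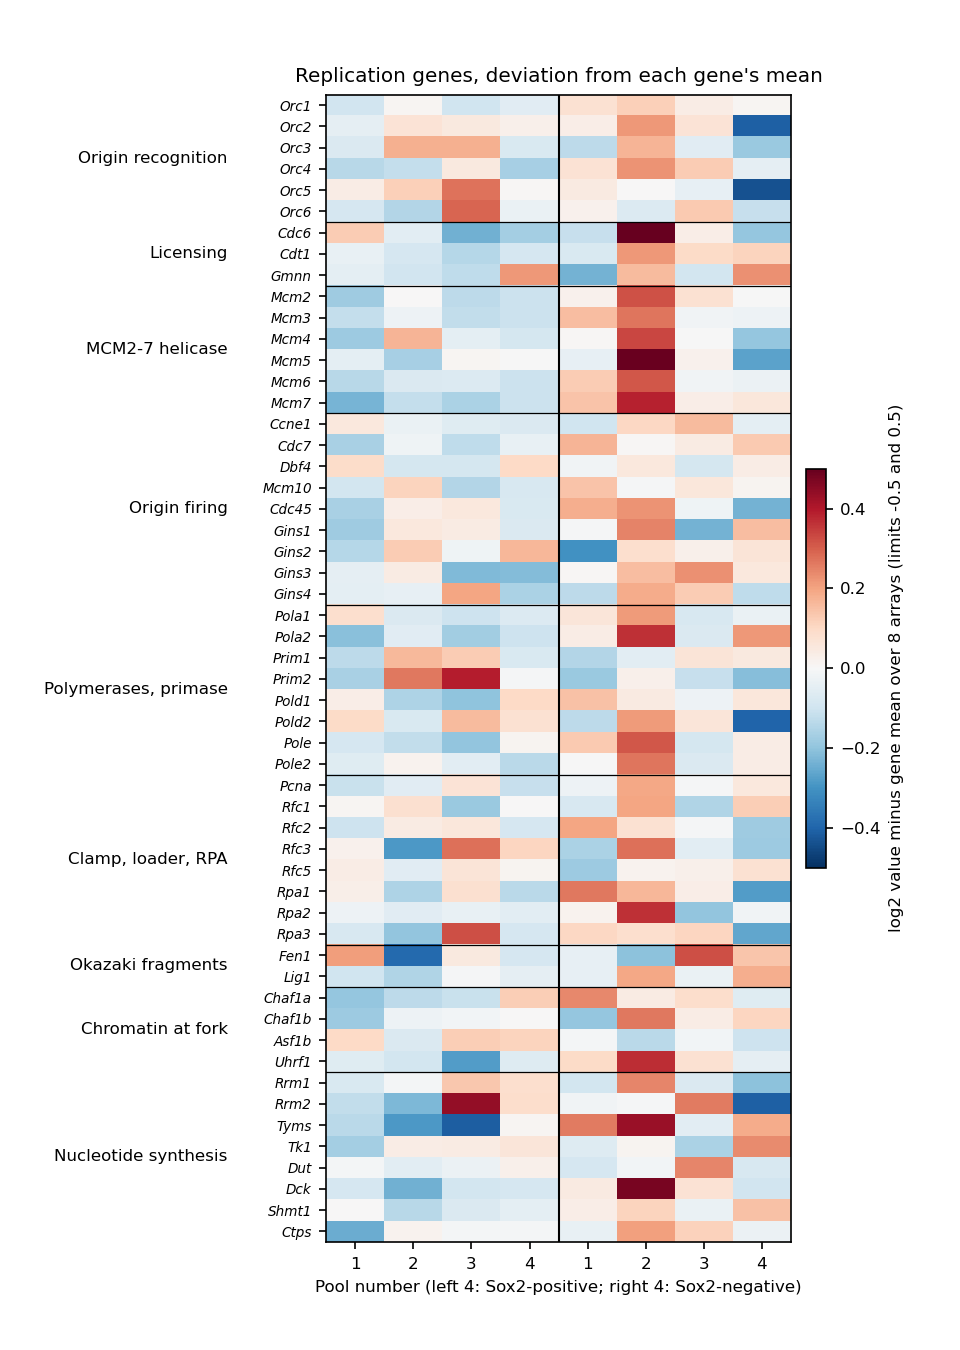
Log2 value of each member on each array minus that gene's mean over the 8 arrays (colour, red above and blue below the mean, with values beyond -0.5 and 0.5 shown at the limit), with genes in rows by role and the 4 Sox2-positive and 4 Sox2-negative pools in columns. The column of Sox2-negative pool 2 is the reddest and holds the highest value of 28 of 54 members; no column of Sox2-positive cells stands apart to that extent.

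That array was picked for its high values in the members, so leaving it out raises their differences by construction. Without it their median difference was -0.03, where that of all genes was -0.04. Below 0 were 33 of 54 members (61.1%, against 58.8% of all genes). Leaving out each array in turn gave member medians of -0.11 to -0.03 and 33 to 41 members below 0, with this array at the upper end of the medians. Of the 40 negative members, 8 turned positive without Sox2-negative pool 2, and 1 of the 14 others turned negative. The array was also the highest in markers of granule neuron progenitors, whose mean level was 8.80 there, 8.44 to 8.64 on the other Sox2-negative arrays and 7.83 to 8.03 on the Sox2-positive arrays. Of these 10 markers, 9 were called lower and 1 (Ccnd1) higher in Sox2-positive cells. Markers of oligodendrocyte progenitors had a mean level of 9.00 to 9.54 on Sox2-positive and 6.17 to 6.22 on Sox2-negative arrays, with 10 of 10 called higher. Astrocyte markers had a mean level of 6.99 to 7.69 against 6.25 to 6.38, with 6 of 8 called higher. Markers of postmitotic granule neurons had a mean level of 8.25 to 8.61 against 8.85 to 9.36, with 6 of 8 called lower (median log2 difference -0.68). The part of this difference in cell types in the members' values was not tested. Markers of microglia (0 of 8 called, mean level 5.93 to 6.03 against 5.80 to 6.08) and of endothelial cells (0 of 5, 5.38 to 5.56 against 5.46 to 5.60) did not separate the fractions.

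Pool by pool, the negative direction was clearest in the pair of number 2, which holds the Sox2-negative array most often highest in the members. The labels do not say that equal numbers share tumours, so these pairs may not be matched. Within numbers 1, 2, 3 and 4 the Sox2-positive array was lower for 34, 46, 32 and 30 of 54 members, with median differences of -0.07, -0.22, -0.03 and -0.02. Over all genes the share that was lower ran from 50.7% to 56.2% in the 4 pairs. In all 4 pairs 13 members were lower, among them Tyms, Mcm2, Mcm3, Mcm6, Mcm7, Pola2, Pole and Uhrf1, and 3 were higher (Orc3, Prim2 and Asf1b). Over all genes 16.5% were lower and 13.5% higher in all 4 pairs.

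Genes of the same machinery outside the list gave 1 call among 23 that act at the fork, where 2.52% of all genes were called lower. Pole3, a small subunit of polymerase epsilon that also binds histones, was at 7.11, 7.21, 6.98 and 6.88 in Sox2-positive cells and at 7.37, 7.72, 7.32 and 7.43 in Sox2-negative cells. The fractions did not overlap, and Pole3 fell by 0.41 on the log2 scale (SE 0.11, limma adjusted p = 0.0323), and 5 of 15 alternatives lost the call (0.0531 to 0.101), those that left out 1 of Sox2-positive pools 3 and 4 or Sox2-negative pools 1, 2 and 4. Of these 23 genes, 21 had a negative difference (median -0.13), beside 58.7% of all genes. Without Sox2-negative pool 2 it was 20 (median -0.10), beside 58.8%. Of 9 further genes of chromatin at the fork 0 passed, with Cdca7 at the largest difference (-0.31, adjusted p = 0.196) and a median of -0.08. Of 15 further nucleotide genes 0 passed, the largest difference being that of Ctps2, a CTP synthase (-0.15, adjusted p = 0.4), and the median was 0.01. At an unadjusted p under 0.05 there were 5 of 23 fork genes, 3 of 9 chromatin genes and 0 of 15 nucleotide genes, beside 20.1% of all genes.

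Of 13 genes of the E2F factors and the retinoblastoma family, which switch most members on and off, 1 was called higher and 1 lower. Of all genes 5.96% were called higher and 2.52% lower. Tfdp2, a dimer partner of E2F factors, fell by 0.40 (SE 0.11, limma adjusted p = 0.0357) without overlap of the fractions, a call kept in 8 of 15 alternatives and lost in the 7 that left out 1 array other than Sox2-positive pool 1 (0.0507 to 0.122). E2f6, a repressor of the family, was 1.38-fold higher (adjusted p = 0.0498), with overlap, a call lost in 10 of 15 alternatives (0.05005 to 0.149). Its mean in Sox2-negative cells (5.68) lay below the receptor genes' upper quartile (5.80), so the size of its difference is less certain. E2f1, an activator of S phase genes, was at 7.18, 7.20, 6.97 and 7.36 in Sox2-positive cells and at 7.38, 7.73, 7.38 and 7.59 in Sox2-negative cells. These values did not overlap, though the margin between Sox2-positive pool 4 and Sox2-negative pool 1 was narrow. The difference of -0.34 (SE 0.11, adjusted p = 0.0802) passed with the pool number as a block (limma adjusted p = 0.0387).

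Genes of mitosis, the step of the cell cycle that follows replication, had differences on the other side of 0. Of 24 measured, 20 had a positive difference, as had 9161 of all 22180 genes. The median of the 24 was 0.17, against -0.09 for the members. Sox2-positive pool 4 stood out: on average the 24 lay 0.25 above their own mean there. On Sox2-positive pools 1 to 3 they lay at 0.07, 0.0061 and -0.03 from it, and on the Sox2-negative pools between -0.16 and 0.01. Of the 24, 1 passed, Ube2c (1.26-fold higher, limma adjusted p = 0.0483), where 5.96% of all genes were called higher. That call was lost in 9 of 15 alternatives (0.0614 to 0.283). Within pool numbers 1 to 4 the median of the mitosis genes was 0.13, 0.0038, 0.06 and 0.39, and that of the members -0.07, -0.22, -0.03 and -0.02. Each pair had the mitosis median above that of the members. Whether the lists differ was not tested, and Mki67, present through most of the cell cycle, was at 8.82 ± 0.25 and 8.87 ± 0.11 (n = 4 each).

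**Figure D4:**
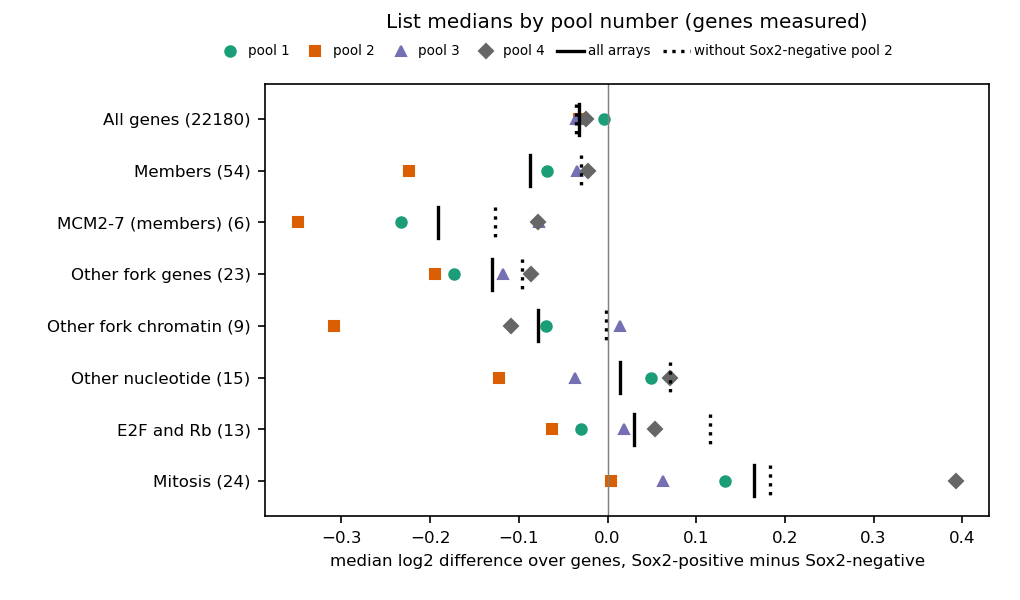
Median log2 difference, Sox2-positive minus Sox2-negative, over the genes of each list (number measured in brackets), within each pool number (symbols), over all arrays (solid bar) and without Sox2-negative pool 2 (dotted bar). For the members the pair of pool 2 lies at -0.22 and the other pairs between -0.07 and -0.02; the mitosis genes lie at or above 0 in every pair.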

How the data were processed

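The authors deposited log2 values per probe set and array. Per the submitters' processing notes they used Expression Console 1.2.0.20 (Affymetrix) with RMA. RMA corrects the background, gives all arrays 1 distribution and summarises each probe set, so a change in total RNA per cell is removed and differences of dim genes shrink. Values between 2.51 and 13.6 showed the log2 scale. The genome build is not given in the sources used here. The number of arrays limits the precision.

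Of 41345 probe sets, 23521 had 1 gene symbol in the platform annotation. The one with the highest mean over the 8 arrays was kept per gene (22180 genes). Each gene was tested with limma 3.58.1 (R 4.3.3), lmFit and eBayes with group alone, two-sided, with Benjamini-Hochberg adjustment over all genes and a threshold of 0.05. The members and lists were chosen with earlier results of these data known, so no test was run over a list.

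Every array's value is given for members past the test with or without the block, for the 5 lowest and 5 highest differences, and for Mcm2, Pcna, Ccne1, Cdc6, Cdt1, Gmnn, Rrm2, Tyms, Tk1 and Uhrf1. Mcm4 and Mcm5 were added after their values were seen. From each further list the genes past the test were named, or the 1 with the largest difference, and Sox2 and Mki67 in every case. E2f1 was added after its values were seen. Red blood cell markers (1 of 5 measured, Slc4a1), lymphocyte (4 of 5) and mural cell markers (3) gave 0, 0 and 1 call (Rgs5, higher).

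Pool numbers 1 to 4 occur in both fractions, and the labels do not say that they share tumours. After the group means were taken out, same-numbered arrays correlated at 0.164, 0.114, 0.177 and 0.241 (different numbers at most 0.161), each over 0.1, so a further fit took the number as a block. Other alternatives were quantile normalization (over the 22180 genes kept), median centring, leaving out dim genes, the mean of probe sets, array weights, a variance trend and leaving out each array. On simulated data (22180 genes, 200 of them changed, 20 simulations) the fit recovered 2.2% of changes of 0.25, 49.1% of 0.5 and 94.9% of 1 on the log2 scale. The real arrays gave 1879 calls, so the adjusted cutoff was stricter in the simulations. These shares therefore do not measure recovery in the real comparison.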

Additional observations from a re-analysis of the deposited data

Results flagged for a closer look

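In 9 of 126 groups of 4 pools (7.14%), 1 array stood far from the other 3 by Dixon's test at the 95% level, for which chance gives about 1 in 20. In Sox2-positive pool 1, Chaf1b was at 7.36 (others 7.51 to 7.54), Tk1 at 7.16 (others 7.37 to 7.39) and Ctps at 6.49 (others 6.72 to 6.75), each the lowest of its group. In Sox2-positive pool 2, Asf1b was lowest at 7.04 (others 7.22 to 7.24) and Dck lowest at 6.74 (others 6.89 to 6.90), while Mcm3 was highest at 6.73 (others 6.63 to 6.64). Uhrf1 was lowest in Sox2-positive pool 3, at 6.45 (others 6.64 to 6.67). In Sox2-negative cells, Gins2 was lowest in pool 1 at 6.60 (others 6.93 to 6.99), and Rpa3 was lowest in pool 4 at 7.54 (others 7.88 to 7.91). None of the 9 lay on Sox2-negative pool 2, the array that was most often highest.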

How the results depend on the processing

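The count of members called higher was 0 in all 15 alternatives. The count called lower was 0, and it was 1 with the replicate block, 1 with dim genes left out, 5 with quantile normalization and 0 to 1 without 1 array. The 5 were Tyms, Mcm7, Mcm2, Mcm6 and Pola2 (limma adjusted p 0.00963 to 0.049), where 3.82% of all genes were called lower, and the cause was not tested. With that normalization 60.2% of all calls were higher in Sox2-positive cells, against 70.3%. The median member difference stayed below 0, between -0.13 and -0.03, and 33 to 43 members were below 0. Calls over all genes numbered 1304 to 2340. The replicate block changed no other call of a member, and among further genes named it added E2f1.

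Of the 54 members, 22 changed sign in some alternative, all with a difference of at most 0.17 and none past the test. With array weights Orc6 was at -0.016, Gmnn 0.051, Rfc1 0.0018 and Tk1 0.0074. With quantile normalization Prim1 was at -0.010, Rfc5 -0.026 and Rrm1 -0.027, and with the mean of probe sets Rpa1 was at 0.016. Without 1 array at a time the ranges were -0.082 to 0.13 for Orc2, -0.079 to 0.067 for Orc6, -0.26 to 0.0072 for Cdc6, -0.11 to 0.045 for Gmnn, -0.15 to 0.025 for Mcm4 and -0.21 to 0.044 for Mcm5. They were -0.024 to 0.038 for Dbf4, -0.026 to 0.12 for Gins2, -0.097 to 0.030 for Gins4, -0.0039 to 0.094 for Prim1, -0.10 to 0.012 for Rfc1, -0.11 to 0.013 for Rfc2 and -0.023 to 0.16 for Rfc3. They were -0.026 to 0.061 for Rfc5, -0.16 to 0.023 for Rpa2, -0.13 to 0.045 for Rpa3, -0.20 to 0.0028 for Fen1, -0.043 to 0.19 for Rrm2, -0.069 to 0.063 for Tk1, -0.067 to 0.041 for Dut and -0.15 to 0.027 for Mki67.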

Other observations

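A second, dimmer probe set was present for 6 members. For Rpa1 the brighter probe set had a log2 difference of -0.09 and the dimmer one 0.12, for Rrm2 it was 0.09 and -0.09, and for Pole -0.20 and 0.08. For Fen1 (-0.11 and -0.14), Dut (-0.03 and -0.06) and Rpa3 (-0.02 and -0.05) both had the same sign. None had an unadjusted p under 0.05 (the lowest was 0.0705, for the brighter probe set of Pole), so neither probe set of these genes gives a direction. The dimmer probe sets of Rpa1, Rrm2, Dut and Fen1 had means of 4.35, 4.04, 4.30 and 4.93, under the median of the receptor genes (4.95), so they may be at background.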
